A study of Arabidopsis thaliana with 6 samples.

Results

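The genes described are 10 regulators of organ boundaries in *Arabidopsis thaliana*, chosen by name as locus identifiers, among 27444 protein-coding genes on the nuclear chromosomes. They are *CUC1* (AT3G15170), *CUC2* (AT5G53950), *CUC3* (AT1G76420), *LOF1* (AT1G26780, *MYB117* in the gene table), *RAX1* (AT5G23000, *MYB37* in the gene table), *LAS* (AT1G55580), *LOB* (AT5G63090), *JLO* (AT4G00220), *BOP1* (AT3G57130) and *BOP2* (AT2G41370). The choice used no value from the files as a limit, but it was made with earlier results of these data known. The study profiled trimethylation of histone H3 at lysine 4 (H3K4me3) and at lysine 27 (H3K27me3), and mRNA, in young leaves of accession Columbia-0 raised on soil at 22.5 °C, with 8 h of light and 16 h of darkness a day. It had 2 chromatin immunoprecipitation (ChIP) samples per mark, 1 input DNA sample and 1 mRNA sample. No source used here gives plant age or leaf number. Each mark has 1 domain list, and mRNA has 1 table of depths (reads per exon base, averaged for each gene), so no value has a replicate error and no test was made.

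Organ boundaries are narrow bands of slowly dividing cells that separate a new leaf or flower from the shoot meristem, and the leaf axil later forms there. NAC factors of the CUC group keep neighbouring organs apart and promote expression of the meristem gene *STM*. *LAS* and the MYB factors act with them in axillary meristem formation, while LOB-domain proteins and the BTB-ankyrin proteins BOP1 and BOP2 act at the base of lateral organs, where the BOP proteins restrain meristem genes of the class I KNOX group in the leaf. H3K27me3 is set by Polycomb Repressive Complex 2 and marks many developmental regulators in tissues that do not transcribe them, and H3K4me3 is typical of transcribed genes.

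Leaf markers were abundant in the mRNA library. The Rubisco small subunit gene *RBCS1A* had a depth of 12915, and all 4 young leaf markers were listed, with a lowest depth of 538.4 for *GLDP1*. The 3 shoot meristem markers *STM*, *WUS* and *CLV3* were not in the table. The dividing-cell marker *CYCB1;1* had a depth of 1.29. Of 3 flower markers 2 were listed, the deeper at 1.41. Of 3 root markers 1 was listed, at 3.03, and it overlaps another annotated gene. The seed markers were not listed. Being listed at a low depth is thus not specific to leaf genes. Depths ran from 1.00 to 22244 over 20764 listed loci, with a median of 6.74, and 7.66% of the loci had exactly 1. No locus had a depth below 1, as a mean over all exon bases would allow, so exon bases without reads may have been left out. How many reads a depth of 1.00 rests on is unknown. Read totals are unknown, so a locus that is not listed has no given depth, and is set to 0 where a median or mean is taken over all genes. In a sample of whole leaves, a small number of boundary cells and little RNA per cell cannot be told apart.

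All 10 boundary genes carried H3K27me3, defined as domains over at least 150 bases of the gene body. The share among all protein-coding genes was 31%. H3K4me3 was on 5 of the 10, namely *CUC2*, *LAS*, *LOB*, *BOP1* and *BOP2*. The share was 64.4% among all genes and 32.8% among the 8499 genes with H3K27me3. These 5 therefore carried both marks, against 10.1% of all genes, and the other 5 carried H3K27me3 alone. Each mark was profiled in its own samples of leaves. Both marks in the same cells and each mark in different cells therefore cannot be told apart. Only 4 of the 10 were listed in the mRNA table, where 72.9% of all genes were listed. These counts describe named genes and are not a test.

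Under stricter calls the H3K27me3 counts changed less than the H3K4me3 counts, and so did the shares among all genes. The 5 H3K4me3 domains on the bodies were narrow, at 300 to 900 bases, and scores rose with width. Limits on cover or score therefore weigh more on them. With 50% of the body as the limit, 8 of the 10 had H3K27me3, all but *CUC1* and *CUC3*, against 22.1% of all genes. None of the 10 then had H3K4me3 (15.5% of all genes) or both marks (1.49%). If only domains scoring no lower than the median of their list were kept, 9 of the 10 had H3K27me3, all but *CUC1*, against 21.6% of all genes. Again none had H3K4me3 (36% of all genes) or both marks (1.01%). Looser limits changed little, and *CUC1*, the gene that gained H3K4me3, did so through a domain that overlaps a neighbouring gene. With 500 bases added on each side of the body, 10 had H3K27me3 and 6 had H3K4me3 and both marks, against 35.5%, 68.2% and 15.5% of all genes, and with an overlap of 1 base the counts were 10, 5 and 5, against 31.3%, 64.8% and 10.4%.

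**Figure D1:**
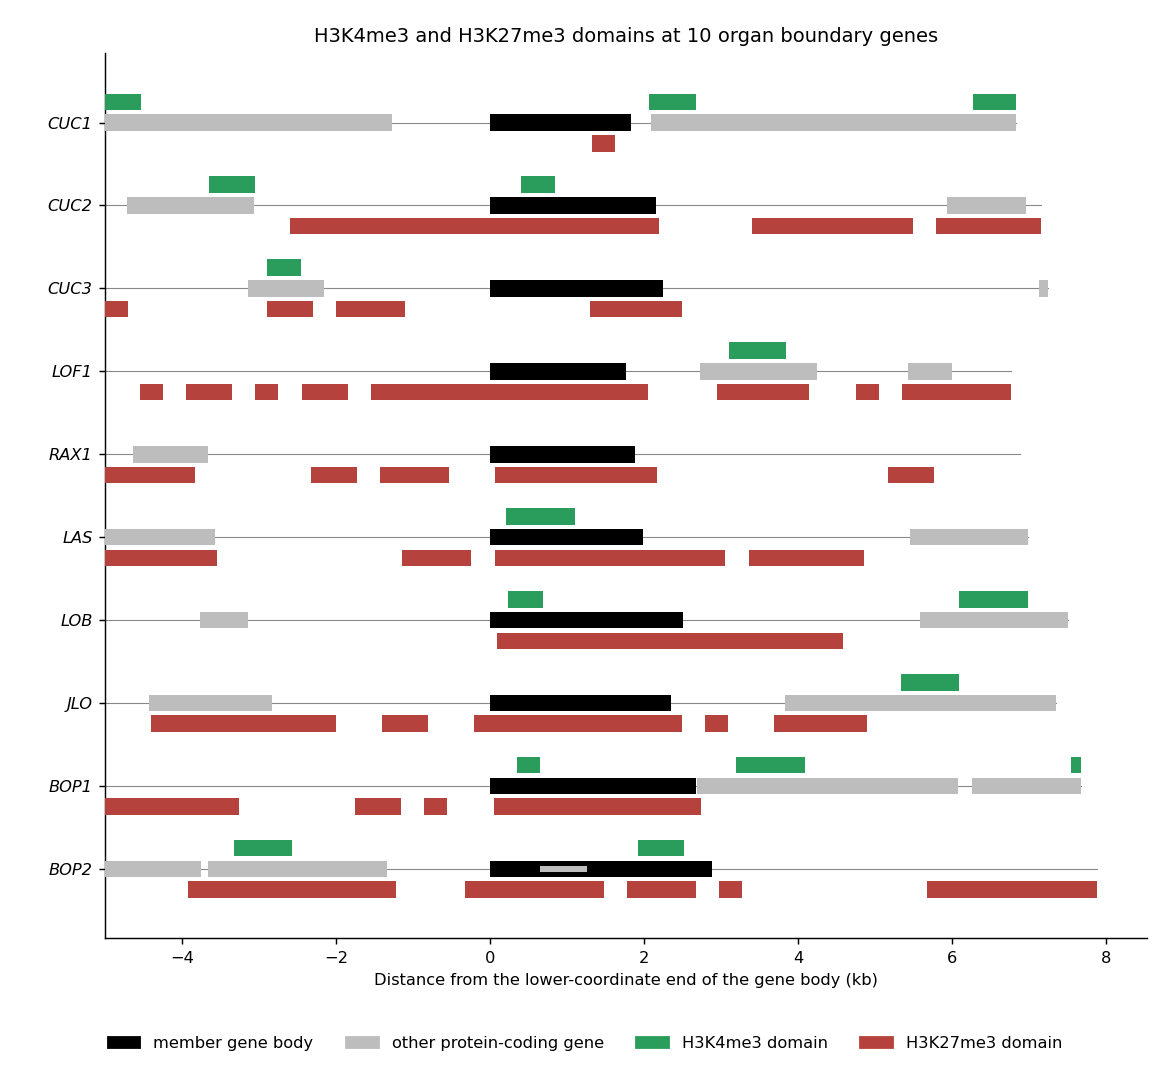
Domains of H3K4me3 (green, above) and H3K27me3 (red, below) at each of the 10 boundary genes, drawn to scale against distance in kb from the lower-coordinate end of the gene body, with 5 kb on each side. Black bars are the boundary genes and grey bars other protein-coding genes (thin where nested). H3K27me3 lay over all 10 bodies, narrowly so at *CUC1*, and the 5 H3K4me3 domains on the bodies lay inside H3K27me3 domains.

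The 3 CUC genes differed widely among themselves in H3K27me3, with 100%, 42.2% and 16.4% of the body covered at *CUC2*, *CUC3* and *CUC1*. *CUC2*, which acts with its relatives in separating cotyledons and in shaping the leaf margin, had the widest H3K27me3 domain of the 10. It spanned 4800 bases of chromosome 5 (21899101 to 21903900, TAIR10, 1-based), covered the whole body of 2151 bases and ran 2603 bases past its lower-coordinate end. That domain was wider than 98.8% of the H3K27me3 list, and its score of 10024 was the highest among the 31 domains of that width, whose median was 7375. An H3K4me3 domain of 450 bases (21902101 to 21902550) lay inside it, over 20.9% of the body. *CUC2* was not listed in the mRNA table.

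*CUC1*, which overlaps in function with *CUC2* in the embryo, stood at the other end. Its H3K27me3 was a single domain of 300 bases, the narrowest width in that list, on chromosome 3 (5111101 to 5111400). It covered 16.4% of the body and scored 384, below the list median of 814, although 90.9% of the 3003 domains of that width scored the same or less. No H3K4me3 lay on *CUC1*. The nearest H3K4me3 domain (5111851 to 5112450) began 242 bases beyond the body and overlapped the neighbour AT3G15180, which had a depth of 4.07. *CUC1* was not listed.

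*CUC3*, which also acts in axillary meristem formation, lay between them. H3K27me3 covered 42.2% of its body in a domain of 1200 bases on chromosome 1 (28673101 to 28674300), from inside the body to 255 bases past the higher-coordinate end. It had no H3K4me3, and its depth was 1.00, the lowest value in the table. The other 8 boundary genes had H3K27me3 on at least 82.3% of the body.

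The MYB gene *LOF1*, which acts in organ separation, lay wholly under an H3K27me3 domain of 3600 bases on chromosome 1 (9269401 to 9273000) that ran 1551 bases past one end of the body and 287 past the other. *RAX1*, a MYB gene of early axillary meristem formation, had 96.5% of its body under a domain of 2100 bases on chromosome 5 (7696201 to 7698300). Neither had H3K4me3 on the body and neither was listed in the mRNA table. The 3000 bases on each side of *RAX1* held no H3K4me3 either, as was also the case at *CUC2*, *LAS* and *LOB*. Such flanks, at 40% of the boundary genes, were found at 35.98% of the genes with H3K27me3 and 22.68% of all protein-coding genes.

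*LAS*, the GRAS gene required for axillary meristems in vegetative growth, combined near-complete H3K27me3 with the widest H3K4me3 among the 10. The H3K27me3 domain of 3000 bases on chromosome 1 (20763901 to 20766900) covered 97.1% of the body and ran on 1077 bases beyond it. The H3K4me3 domain of 900 bases (20764051 to 20764950) lay inside it and covered 45.5% of the body, a share reached or undercut by 67.8% of the 2785 genes with both marks. *LAS* was nevertheless not listed in the mRNA table.

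Of the 2 LOB-domain genes, *LOB* itself, the founding gene of the family and a regulator that limits growth at the organ base, carried both marks. Its H3K27me3 domain was the second widest of the set, 4500 bases on chromosome 5 (25308601 to 25313100), over 96.6% of the body and 2081 bases beyond it. An H3K4me3 domain of 450 bases (25308751 to 25309200) covered 18.0% of the body. The depth of *LOB* was 1.00. *JLO*, a LOB-domain gene of boundaries and of the embryo, lay wholly under an H3K27me3 domain of 2700 bases on chromosome 4 (89701 to 92400) without H3K4me3, and its depth was 1.13.

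The BOP genes encode partly redundant co-regulators at the leaf base, and they differed in both mRNA and domain structure. *BOP2* had the highest depth of the 10, 4.27, whereas *BOP1* was not listed. *BOP2* was also the only one of the 10 whose body was under 2 H3K27me3 domains, of 1800 bases (17237401 to 17239200) and 900 bases (17239501 to 17240400) on chromosome 2, with 300 bases between them. Together they covered 82.3% of the body. Its H3K4me3 domain of 600 bases (17239651 to 17240250) lay inside the narrower one. *BOP1* had 98.4% of its body under 1 domain of 2700 bases on chromosome 3 (21147601 to 21150300) with a score of 7273. Of the 307 domains of that width, 99.0% scored the same or less. Its H3K4me3 domain (21147901 to 21148200) was the narrowest of the 5, at 300 bases and 11.2% of the body. The body of *BOP2* contains a further annotated gene, AT2G41375, which was not listed, so reads and domains over the shared part cannot be assigned to 1 gene. No other boundary gene overlapped an annotated gene.

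**Figure D2:**
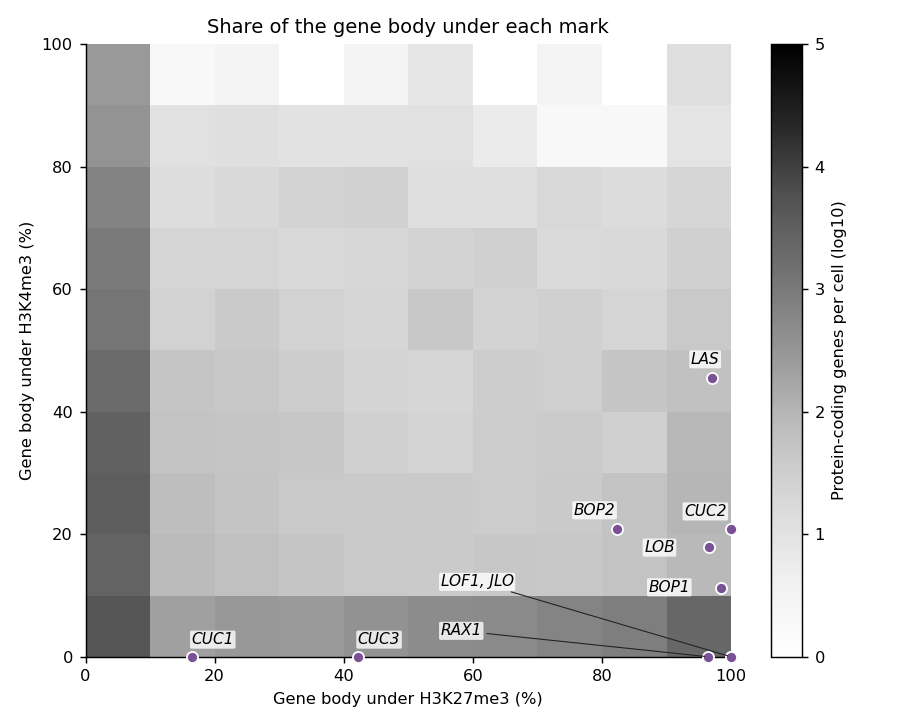
Share of the gene body under H3K27me3 (x axis, %) and H3K4me3 (y axis, %) for the 10 boundary genes (points) over all 27444 protein-coding genes (grey cells, number of genes on a log10 scale). In all, 8 of the 10 points lie at 82.3% to 100% on the H3K27me3 axis, and *LAS* is highest on the H3K4me3 axis at 45.5%.

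Set beside other marked genes, the boundary genes were more fully covered by H3K27me3. Their median share of the body was 96.9%, against 74.7% among the 8499 genes with the mark, and 7 of the 10 had at least 90% of the body covered, against 31.7% of those genes. Such cover was not particular to the 10. The median, marked or not, was 98.6% over the 25 further boundary pathway genes and 89.5% over the 11 closest relatives, both described below. The widest domain on the body had a median of 2700 bases in the boundary genes and 1200 in the genes with H3K27me3. It reached 3000 bases at *CUC2*, *LOB*, *LOF1* and *LAS*, 4 of the 10, against 12.1% of the genes with the mark. Gene bodies were somewhat longer, with a median of 2195.5 bases, against 1702 in genes with H3K27me3.

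The unit of the domain scores is not given, and scores rose with width, so each domain was ranked among those of equal width in the same list, besides the list median. Each of the 11 H3K27me3 domains on the boundary gene bodies scored above the median of its width. The lowest place was that of *CUC3*, where 57.6% of domains of that width scored the same or less, and 10 of the 11 also reached the median of the whole list. The H3K4me3 domains ranked lower. None of the 5 reached the list median of 1221. Against all H3K4me3 domains of equal width, those on *CUC2* (score 346, median 501) and *LAS* (932, median 1683) were low, with 10.5% and 5.24% of domains scoring the same or less. Those on *LOB* (543, median 501), *BOP1* (301, median 269) and *BOP2* (966, median 934.5) lay above the middle. In that order, 57.7%, 67.1% and 54.2% of domains scored the same or less.

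The 5 were also set beside the 2118 H3K4me3 domains that lie wholly inside H3K27me3, which make up 11.0% of the list and have a median width of 450 bases. Among such domains of equal width, *BOP2* stood highest, with 88.1% of 310 domains scoring the same or less, followed by *LOB* (82.8% of 547), *BOP1* (76.8% of 759) and *LAS* (54.8% of 62). *CUC2* was the only one below the middle, at 19.9% of 547. *BOP2*, with the highest place by this measure, also had the highest depth, but *BOP1* ranked above *LAS* and neither was listed.

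**Figure D3:**
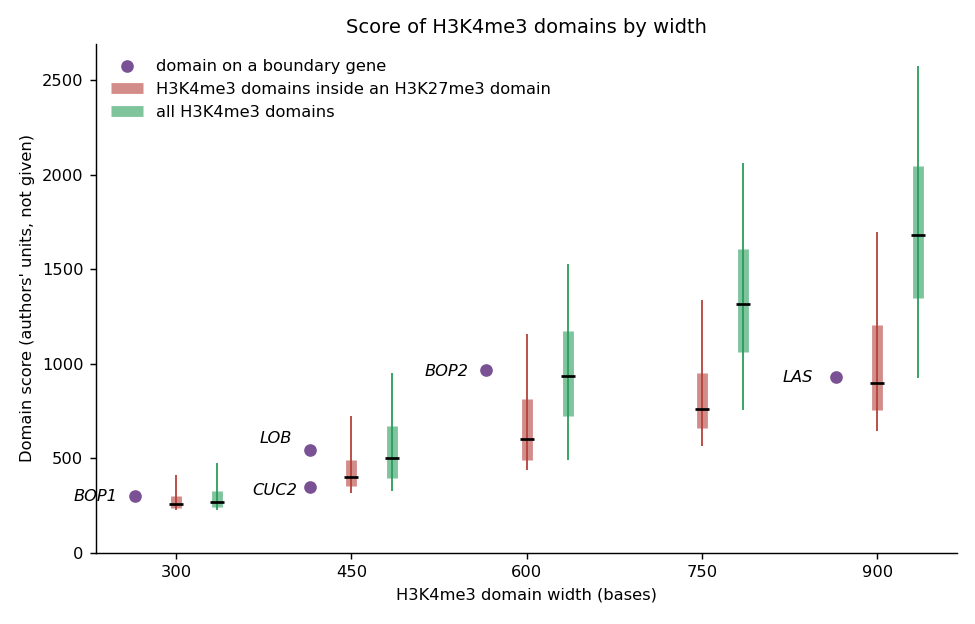
Score of H3K4me3 domains (y axis, authors' units, not given) by domain width (x axis, bases). Points are the domains on *BOP1*, *CUC2*, *LOB*, *BOP2* and *LAS*, red bars the domains inside H3K27me3 and green bars all H3K4me3 domains (thick bars, quartiles; thin lines, 5th to 95th percentile; black ticks, medians). *BOP2* at 966 lies above the red median of 601 and *CUC2* at 346 below that of 402.

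Each of the 5 H3K4me3 domains lay wholly within the body. The distance to the nearer end of the body was 207 bases at *LAS*, 235 at *LOB*, 343 at *BOP1*, 359 at *BOP2* and 397 at *CUC2*. Their median of 343 was at the upper quartile, 344, of the 2818 H3K4me3 domains within bodies of genes with both marks, whose median was 210. Lying within the body was common, since it held for all H3K4me3 domains of 89.5% of the genes with both marks. Lying entirely under H3K27me3 was less so: it held for 5 of 5 boundary genes and for 54.4% of the genes with both marks. It also held for *AS2*, *KNAT6* and most, but not all, of the 15 boundary pathway genes with both marks described below. By median, the 5 boundary genes also had less H3K4me3 and more H3K27me3 than the class of genes with both marks. Their medians were 20.8% and 97.1% of the body, against 32.4% and 52.1%. *LAS*, with 45.5% of the body under H3K4me3, lay above the class median for that mark. Where H3K27me3 covers nearly the whole body, a domain within that body falls under it at most positions. The nesting is therefore not separate from the cover, and it does not place both marks in the same cells. The gene table gives no strand, so which end is the start of the gene was not used here.

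Most boundary genes lay in wide intergenic space, and at 9 of the 10 that space carried H3K27me3. The distances to the nearest protein-coding genes on both sides, summed, had a median of 6967.5 bases, against 2905 for genes with H3K27me3 and 1833.5 for all genes. *BOP2* had the longest sum, 12550 bases, longer than or equal to that of 95.6% of all genes, and *CUC1* the shortest, 1536. H3K27me3 covered a median of 43.4% of these intergenic bases, against 16.1% around genes with H3K27me3. The share was highest at *CUC2*, 71.3%, and lowest at *CUC3*, 16.4%, and *CUC1*, 0. Further H3K27me3 domains, separate from those on the body, lay within 3000 bases of 8 of the 10 genes, against 70.3% of the genes with H3K27me3. *LOF1* and *JLO* had 4 each, *BOP2* had 3, and *CUC1* and *LOB* had none. Of these 20 flanking domains, 15 touched no protein-coding gene and 5 lay at least in part on a neighbour. They were narrower than those on the bodies, with a median width of 750 bases, against 2700. Neighbouring genes included, H3K27me3 covered a median of 2345 bases in the 3000 on each side of a boundary gene, against 1360 for genes with H3K27me3.

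The domains on the bodies mostly ended before the next gene. Of 20 neighbouring protein-coding genes, only SDP1-LIKE, which begins 3 bases from *BOP1*, was touched by the same H3K27me3 domain, over 1.74% of its body. H3K27me3 in domains of their own was found on 12 of the 20 neighbours, 60%, against 47.6% of the neighbours of all genes with H3K27me3, and 13 of the 20, 65%, were listed in the mRNA table, against 63.0%. *CUC1* was flanked on both sides by genes with H3K4me3 alone, AT3G15160 (depth 7.11) and AT3G15180. The neighbour of *RAX1* on one side, 5018 bases away, was the methylthioalkylmalate synthase gene *MAM1*, at a depth of 69.9 with both marks. *MAM1* is named here outside the rule given below. *JLO* lies beside *LBD31*, also a LOB-domain gene and also named outside that rule, 2836 bases away. *LBD31* had 98.1% of its body under a separate H3K27me3 domain and a depth of 1.00.

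The order of mRNA depth was *BOP2* (4.27), *JLO* (1.13), then *CUC3* and *LOB* (1.00 each), and the other 6 genes were not listed. *BOP2* alone stood clear of the lowest values: 36.7% of the listed protein-coding genes had the same or a lower depth, and 49.7% of the listed genes with both marks. For *JLO* these shares were 8.43% of all listed genes and 40.8% of those with H3K27me3 alone. With 1 library and unknown read totals, the difference between 1.00 and 1.13 cannot be set against an error. Mean log2(depth + 1) was 0.55 in the boundary genes and 2.33 in all protein-coding genes, a difference of -1.78 on that scale, with unlisted genes at 0. The median depth, set the same way, was 0 both in the boundary genes and in the genes with H3K27me3.

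The presence of H3K4me3 did not separate listed from unlisted boundary genes. Of the 5 with both marks, *LOB* and *BOP2* were listed, and of the 5 with H3K27me3 alone, *CUC3* and *JLO*, so the share was 40% in each. Among all genes it was 79.0% for both marks and 26.0% for H3K27me3 alone. The unlisted genes with both marks were *CUC2*, *LAS* and *BOP1*. The meristem markers were also unlisted, as given above, and the part that the number of boundary cells in the leaves plays in these values was not tested.

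**Figure D4:**
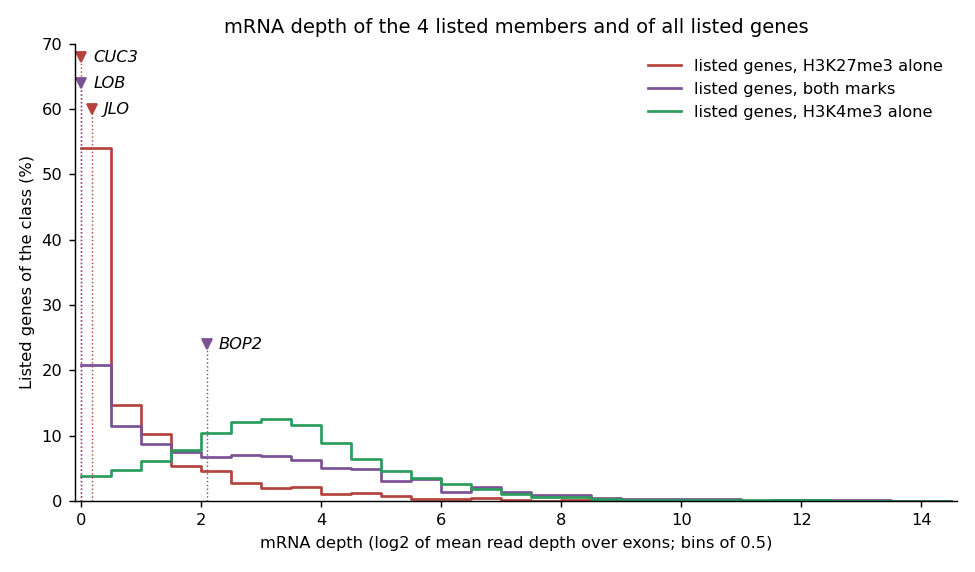
mRNA depth (x axis, log2 of the mean read depth over exons, bins of 0.5) of the 4 listed boundary genes (triangles, whose height has no meaning; red for H3K27me3 alone, purple for both marks) over the distribution of all listed protein-coding genes by mark class (lines, % of the class). *CUC3*, *LOB* and *JLO* fall in the lowest bin, which holds 54.1% of listed genes with H3K27me3 alone, 20.7% of those with both marks and 3.77% of those with H3K4me3 alone.

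The closest relatives of the boundary genes split by family. Of 11, the 7 MYB and LOB-domain relatives carried H3K27me3, 6 of them alone, and the 4 NPR relatives of the BOP proteins carried H3K4me3 alone. *LOF2*, *RAX3* and *LBD25*, picked out after their values were seen, lay wholly under H3K27me3, as *LOF1* did. *AS2*, a LOB-domain gene that keeps KNOX genes off in leaves, carried both marks like *LOB*, with 21.1% of the body under H3K4me3 and a depth of 2.09. The NPR genes, salicylate receptors and their relatives, had no H3K27me3 on the body, in contrast to 98.4% and 82.3% at *BOP1* and *BOP2*. *NPR4* had 41.2% of the body under H3K4me3 and a depth of 14.8, and *NPR1*, which overlaps 2 other annotated genes, a depth of 10.9. *NPR3* had a depth of 7.83, but AT4G26120 (*NPR2*), with 23.4% of the body under H3K4me3, had 1.14, below *BOP2*.

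The microRNA miR164 cleaves the mRNAs of *CUC1* and *CUC2* but not of *CUC3*, and also targets NAC genes outside the boundary. None of 5 such NAC genes carried H3K27me3, a mark found on 31% of all protein-coding genes. *NAC1*, a root auxin response gene, had H3K4me3 alone and a depth of 10.8 but overlaps 2 other annotated genes, and the senescence regulator *ORE1* had H3K4me3 alone and a depth of 2.23. ANAC059 and ANAC100 had neither mark, with depths of 2.19 and 1.00. The 3 MIR164 loci lay wholly under H3K27me3. *MIR164B* was also wholly under H3K4me3 and had a depth of 1.00, while *MIR164A* and *MIR164C* had no H3K4me3 and were not listed. These loci are 102 to 153 bases long, shorter than or about as long as 1 step of the H3K4me3 list.

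Of 25 further genes of boundaries and their pathway, 23 carried H3K27me3, against 31% of all protein-coding genes. Both marks were on 15 of the 23, against 10.1% of all genes, and 2 of the 25 carried H3K4me3 alone. These 2 were also the deepest, the homeobox gene *ATH1*, which acts at shoot boundaries, at 21.3 and *AS1*, the MYB partner of AS2, at 16.3, the latter overlapping another gene. The remaining 8 had H3K27me3 alone. Of these, 6 were not listed, namely *BRC1*, the repressor of bud outgrowth, the axillary meristem genes *EXB1* (*WRKY71*) and AT5G01305 (*ROX*), the floral boundary genes *RBE* and *SUP*, and *NUB*, a relative of *JAG*. The homeobox gene *PNF* was listed at 1.66 and the bZIP gene *PAN*, which overlaps 2 other annotated genes, at 1.31. *LSH3* and *LSH4*, which CUC1 activates directly, and *BAS1*, a brassinosteroid-inactivating enzyme gene that LOB activates, were picked out after their values were seen. All 3 carried both marks, at depths of 3.36, 5.49 and 3.71, while *LOB* had 1.00 and *CUC1* was not listed. In *BAS1* the marks shared no base. *DPA4*, a repressor of *CUC2* in the leaf margin also named after its values were seen, had both marks and a depth of 1.00.

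The class I KNOX genes resembled the boundary genes in H3K27me3. *STM*, *KNAT1*, *KNAT2* and *KNAT6* all had the mark, which 31% of all protein-coding genes carried. It covered a median of 87.6% of the body in these KNOX genes, and *KNAT6* alone also had H3K4me3. The share with H3K4me3 was thus 5 of 10 boundary genes and 1 of 4 KNOX genes, a difference that was not tested. *KNAT6* (1.38) and *KNAT2* (1.00) were listed, both below *BOP2*.

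**Figure D5:**
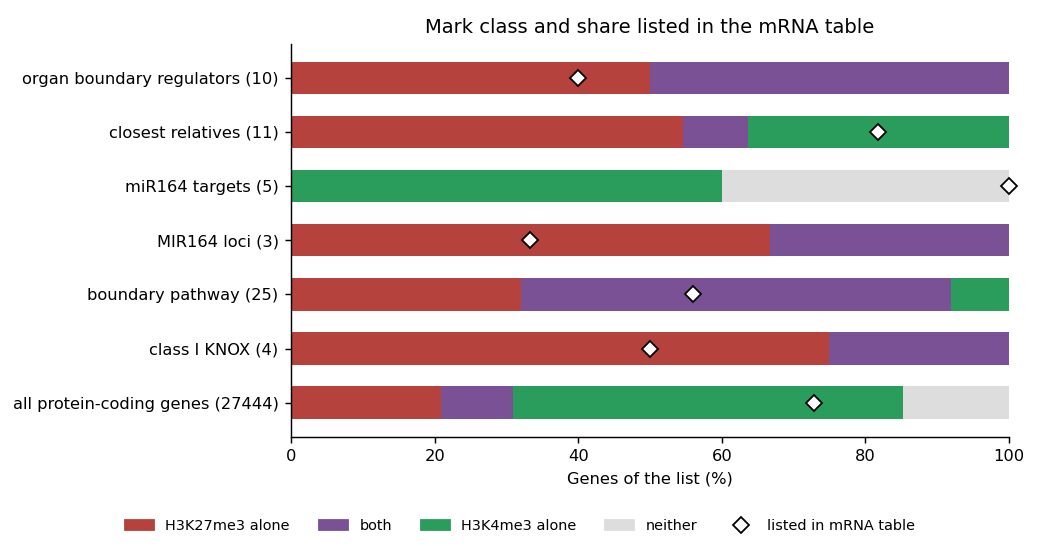
Share of each gene list (x axis, %; list sizes in brackets) in each mark class (coloured bars) and share listed in the mRNA table (diamonds). The boundary genes divide 5 and 5 between H3K27me3 alone and both marks with 40% listed, and 72.9% of all protein-coding genes were listed.

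Genes most like the listed boundary genes were sought over 3 measures in these files, the body share under each mark and log10 depth. Nearest to *BOP2* were AT1G72800 (depth 4.64) and *WRKY23* (depth 3.64, with 82.7% of the body under H3K27me3 and 19.6% under H3K4me3). Nearest to *JLO* were *CAD3* and AT4G27590, to *LOB* AT1G14930 and AT5G60260, and to *CUC3* *BGLU45* and AT1G63630. Among 7445 other unlisted genes, those within 10 percentage points of both shares numbered 2142 for *RAX1* and 1902 for *LOF1*, but 221 for *CUC1*, 113 for *CUC2*, 85 for *BOP1* and 67 for *LAS*. The pattern of *RAX1* and *LOF1* was thus common among unlisted genes, and those of *BOP1* and *LAS* were rarer.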

How the data were processed

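Per the submitters' processing notes, Bowtie and SICER were used with the TAIR10 build; versions, settings and the roles of replicates and input are not stated in any source used here. The authors deposited 1 list per mark (19276 H3K4me3 and 15863 H3K27me3 domains) with a score of unknown unit, which rose with width (Spearman rho 0.89 and 0.95). Domains lay on a grid of 150 bases for H3K4me3 and 300 for H3K27me3. For mRNA they deposited a coverage signal, the mean depth over exons, used as deposited; no source used here states a scaling or strand setting. Of 20764 loci, 20677 matched the nuclear genes.

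Names and gene bodies came from the RefSeq table of TAIR10.1, and no coordinate of it is printed. H3K4me3 domains were moved against gene bodies by up to 10 kb in 50-base steps, and in 26 of 26 windows of 5 Mb the overlap was largest at 0. Overlaps were computed in Python 3.11.15 with pandas 2.3.3 and checked on simulated data. Medians over genes set unlisted genes to 0, and the pseudocount was 1. The 10 genes, the lists and the rule for named genes were chosen with earlier results of these data known. The rule covered all 10 and those neighbours that share a domain with them or lie close by. From each list it covered the 2 deepest genes and those outside the most frequent class. Others are marked in the text. Promoter and protein sequences were not used here.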

Additional observations from a re-analysis of the deposited data

How the results depend on the processing

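The count of boundary genes with H3K27me3 was 10, and stayed at 10 with any overlap of 1 base and with 500 bases added on each side. It was 8 with at least 50% of the body covered, which *CUC1* and *CUC3* missed, and 9 when domains scoring below their list's median were left out, which *CUC1* missed. H3K4me3, and with it both marks, fell to 0 of 10 under each of these 2 settings. With 500 bases added, both counts were 6, *CUC1* being the addition, through the H3K4me3 domain that overlaps its neighbour AT3G15180. The median H3K4me3 share of 5.59% became 0 without the low-scoring domains and 8.64% with 500 bases added, where the median H3K27me3 share was 79.8%. The median depth of 0 was 1.06 over listed genes. The difference of -1.78 in mean log2 depth was -2.95 with a pseudocount of 0.1, -1.82 over listed genes and -1.31 over genes with a depth of at least 2, where *BOP2* was the only boundary gene left.

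No paired analysis was possible because the files hold 1 list of domains per mark and no values per replicate. Leaving out each replicate was not run for the same reason. The sampling error of depths and scores is unknown.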
